A study of Mus musculus with 12 samples.

Results

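The genes described here encode the STAT transcription factors Stat2, Stat3, Stat4, Stat5a, Stat5b and Stat6 of mouse CD8 T cells, with the kinase gene Jak3 listed beside them. They were chosen by name, and a gene was read only from probe sets annotated to exactly 1 gene symbol, taking the brightest where there were several. Each of the 6 STAT genes had 1 such probe set and all 6 were bright enough to be tested, among 9862 genes tested of 22180 measured. Jak3 had 0, because its probe set also carries the symbol of a second gene, so Jak3 is not reported and 6 of the 7 listed genes were followed. They stand on chromosome 1 (Stat4), chromosome 10 (Stat2 and Stat6) and chromosome 11 (Stat3, Stat5a and Stat5b).

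STAT proteins wait in the cytoplasm until a cytokine receptor is engaged. Kinases of the JAK family, bound to the receptor tails, then phosphorylate them, and the paired STATs enter the nucleus and bind DNA. In T cells STAT3 carries signals of IL-6, IL-21 and IL-23 and is needed for IL-17-producing cells, STAT4 carries IL-12 signals toward interferon-gamma, the closely related STAT5A and STAT5B carry IL-2 and IL-7 signals, STAT6 carries IL-4 signals, and STAT2 acts in the type I interferon pathway. JAK3 sits on the common gamma chain, the receptor subunit that the IL-2, IL-4, IL-7 and IL-21 receptors share.

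Expression was measured on 12 Affymetrix arrays, 3 for each of 4 groups: Tc17 STAT3-/-, Tc17 WT, Tc1 STAT3-/- and Tc1 WT. STAT3-/- cells came from Cd4cre+ STAT3fl/fl mice, in which a Cre recombinase under a Cd4 promoter removes the floxed part of Stat3 in developing T cells, and whether the WT mice carried the Cre is not given in the labels. Naive CD8 T cells from the spleen were mixed 1 to 1, STAT3-/- with WT, and activated with anti-CD3 (1 µg/ml) and anti-CD28 (3 µg/ml) for 4 days. For the first 3 days the medium held IL-12 (Tc1) or IL-6 with TGF-beta (Tc17), and for 1 more day IL-2, after which all groups were sorted apart by an allelic surface marker. The labels give neither the age and sex of the mice nor the animal or culture behind a replicate, so a p-value here reflects only the spread of the samples at hand, part of which may be technical. In each group the labels name biological arrays 1 and 2 and a technical array 2. The technical array was averaged with biological array 2, giving 2 samples a group, and SDs below are over those 2 samples.

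All 8 measured CD8 T cell markers passed the filter on dim genes. Of these, 1 was called higher in Tc17 STAT3-/- than in Tc17 WT (Cd8a, 0.30) and 1 lower (Cd5, -0.33). Over all tested genes 18.2% were called higher and 6.83% lower. The summed linear signal of 4 measured Tc17 markers (Il17a, Il17f, Il23r, Ccr6) was 67.9 to 78.8 in Tc17 STAT3-/- and 751 to 2299 in Tc17 WT, and at most 61.7 in Tc1 cells of either genotype, so cells labelled Tc17 STAT3-/- carried little Tc17 marker signal and the name refers to their culture. The Tc17 WT technical array stood apart, with a median correlation of 0.933 with the other arrays, against 0.961 to 0.986 for the other 11. Its values are named below for Stat3, Stat4, Stat5a and Stat5b, but not for the markers and the list genes. Values are on a log2 scale made with RMA, which narrows differences near background, and the 6 STAT genes lay between 6.99 and 10.7, well above the filter at 5.

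Promoter sequences of the genes whose levels differed are shown for the STAT motifs they hold or lack. Each runs from 250 bases before to 50 bases after a RefSeq start on GRCm38.p6, 300 bases 5′ to 3′ on the gene's own strand. The most upstream start was taken where RefSeq lists several. Capitals mark GGGCGG (or CCGCCC, its other strand), the GC box, and TTCNNNGAA, the palindrome that STAT dimers prefer. Socs3, the feedback inhibitor that STAT3 is known to induce, is given for comparison.
Stat3 (chr11:100939491-100939790, minus strand): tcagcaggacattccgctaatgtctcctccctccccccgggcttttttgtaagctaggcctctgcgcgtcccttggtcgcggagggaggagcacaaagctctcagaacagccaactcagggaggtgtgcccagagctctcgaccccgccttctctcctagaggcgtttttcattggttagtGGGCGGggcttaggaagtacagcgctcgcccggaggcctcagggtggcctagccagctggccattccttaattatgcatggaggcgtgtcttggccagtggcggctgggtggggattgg
Stat4 (chr1:51986898-51987197, plus strand): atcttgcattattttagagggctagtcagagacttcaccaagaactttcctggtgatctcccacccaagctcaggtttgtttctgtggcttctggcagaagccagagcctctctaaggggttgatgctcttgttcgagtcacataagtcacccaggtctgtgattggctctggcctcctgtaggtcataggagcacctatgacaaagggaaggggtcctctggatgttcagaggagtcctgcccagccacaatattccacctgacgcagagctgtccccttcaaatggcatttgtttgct
Stat5a (chr11:100859406-100859705, plus strand): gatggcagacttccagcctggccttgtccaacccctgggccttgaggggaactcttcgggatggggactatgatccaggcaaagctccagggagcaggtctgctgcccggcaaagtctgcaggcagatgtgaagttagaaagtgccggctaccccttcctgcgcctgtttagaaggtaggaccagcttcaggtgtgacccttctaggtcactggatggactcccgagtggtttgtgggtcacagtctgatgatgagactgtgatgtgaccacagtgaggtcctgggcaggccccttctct
Stat5b (chr11:100850532-100850831, minus strand): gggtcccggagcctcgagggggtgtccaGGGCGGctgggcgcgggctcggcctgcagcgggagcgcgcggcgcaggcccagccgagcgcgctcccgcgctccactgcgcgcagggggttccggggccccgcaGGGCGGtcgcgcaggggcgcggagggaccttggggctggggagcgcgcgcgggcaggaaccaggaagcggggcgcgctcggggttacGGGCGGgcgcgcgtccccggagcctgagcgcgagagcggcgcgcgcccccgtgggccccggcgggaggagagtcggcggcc
Socs3 (chr11:117969317-117969616, minus strand): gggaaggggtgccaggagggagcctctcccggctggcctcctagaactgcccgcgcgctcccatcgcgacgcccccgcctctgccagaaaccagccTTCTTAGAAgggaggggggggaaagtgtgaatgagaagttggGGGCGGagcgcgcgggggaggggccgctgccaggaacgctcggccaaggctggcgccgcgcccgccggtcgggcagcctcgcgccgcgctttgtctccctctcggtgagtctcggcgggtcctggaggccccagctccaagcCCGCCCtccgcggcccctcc

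None of the 10 promoter windows of the 7 listed genes held TTCNNNGAA, which occurred in 8.30% of all 32851 promoter windows, and the Socs3 window held it once. The same palindrome with 1 more spacer base, which STAT6 is known to accept, occurred in 6.95% of all windows and in 1 of the 10, that of Stat2. The cyclic AMP response element occurred in 1.79% of all windows and in 0 of the 10. The GC box stood in 5 of the 10 windows, those of Stat2, Stat3, Jak3, the downstream start of Stat5a and the upstream start of Stat5b, against 35.7% of all windows. These are letter matches in a short window and say nothing of binding.

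The targeted gene was checked first. Stat3 RNA was far lower in STAT3-/- cells of both cultures. In Tc17 STAT3-/- its log2 values were 7.80 and 7.93 on the biological arrays and 7.59 on the technical array, against 10.72, 10.69 and 10.38 in Tc17 WT. In Tc1 STAT3-/- they were 7.67, 7.16 and 6.99, against 10.13, 10.11 and 9.77 in Tc1 WT. Every STAT3-/- array lay below every WT array.

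Stat3 fell by 2.85 ± 0.18 (SE) in Tc17 (limma adjusted p = 1.4e-05), which leaves 13.9% of the WT signal, and by 2.66 ± 0.18 in Tc1 (adjusted p = 0.00029), which leaves 15.8%. Both calls held under all 23 alternatives. Which exons the probes cover is not stated, so the signal left in STAT3-/- cells may come from outside the deleted part. The source of that signal was not tested.

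**Figure D1:**
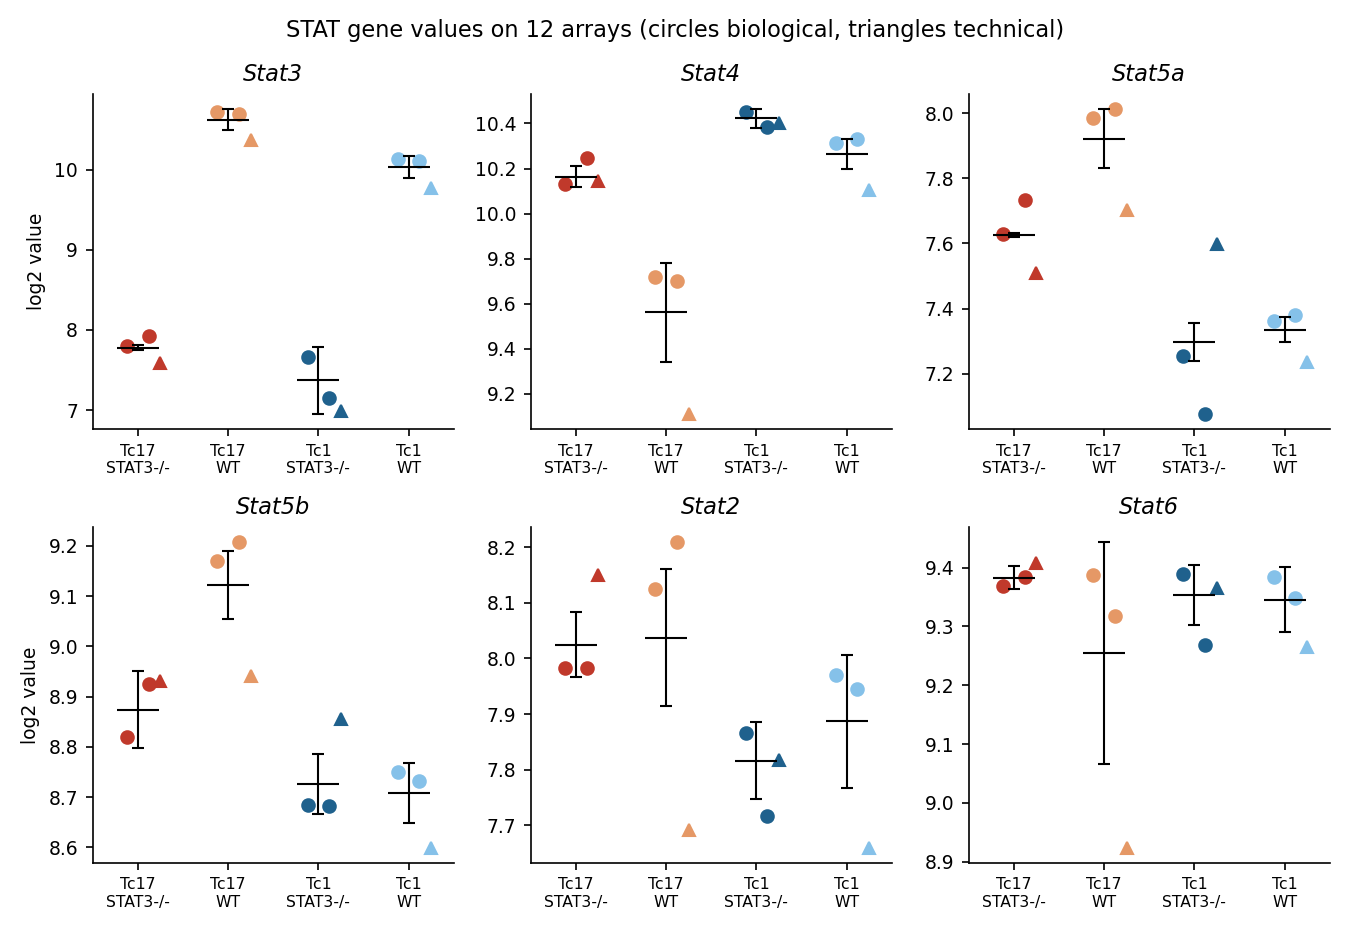
Log2 value (vertical axis, a separate range in each panel) of the 6 STAT genes on the 12 arrays, by group. Circles are biological arrays, triangles technical arrays, and black bars the mean ± SD over 2 samples, after the technical array was averaged with biological array 2. Stat3 separates the genotypes, Stat4 is lowest in Tc17 WT, and Stat5a and Stat5b are highest there.

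With Stat3 lost, 2 of the 5 other STAT genes changed in Tc17: Stat4, the IL-12 signal carrier, rose, and Stat5a, an IL-2 signal carrier, fell. Stat5b lay lower by nearly as much as Stat5a without passing the threshold, and no difference was called for Stat2 or Stat6. Of all 9862 genes tested, 25.1% were called in this comparison (18.2% higher and 6.83% lower), so 2 of 5 is not far from that background. Calls were higher in STAT3-/- for 72.7% of the called genes, and for 49.4% to 82.4% after the 4 rescalings described below. Counting Stat3, whose fall is set by the deletion, the STAT genes gave 3 calls of 6 (4 at an unadjusted p under 0.05). Their median change was -0.13 with Stat3 and -0.01 without it, against 0.11 over all genes tested.

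Stat4 was the clearest of these. It read 10.13 and 10.25 on the biological arrays and 10.14 on the technical array of Tc17 STAT3-/-, against 9.72, 9.70 and 9.11 in Tc17 WT. The groups did not overlap, and the lowest WT value was on the technical array. The change was 0.60 ± 0.11 (SE), or 1.52-fold (adjusted p = 0.0061), with a 95% interval from 0.34 to 0.86.

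By size this change of Stat4 ranked 893 among the 9862 tested genes, near the top 9.05%. It was 0.41 and 0.55 between like-numbered biological arrays and 1.03 between technical arrays, so the technical pair gave the larger value. Without any technical array it was still called. The call was lost under 1 of the 23 alternatives, without Tc17 STAT3-/- replicate 2 (0.57, adjusted p = 0.0559), where the lone remaining sample is assumed to vary like the other groups.

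Stat5a read 7.63 and 7.73 on the biological arrays and 7.51 on the technical array of Tc17 STAT3-/-, against 7.99, 8.01 and 7.70 in Tc17 WT. The WT technical array fell among the STAT3-/- values, so the groups overlapped. Like arrays differed by -0.36, -0.28 and, between technical arrays, -0.19. Stat5a fell by 0.30 ± 0.09 (SE, adjusted p = 0.0409, 95% interval from -0.50 to -0.09), which is 81.4% of the WT signal. This call was weak: it was lost under 13 of 23 alternatives, among them 7 of the 8 in which a sample was left out (adjusted p up to 0.186, without Tc17 STAT3-/- replicate 2), while the direction held in all.

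Stat5b read 8.82 and 8.92 on the biological arrays and 8.93 on the technical array of Tc17 STAT3-/-, against 9.17, 9.21 and 8.94 in Tc17 WT. The groups did not overlap. Like arrays differed by -0.35, -0.28 and, between technical arrays, -0.01. The difference was -0.25 ± 0.09 (SE, adjusted p = 0.0799). It passed the threshold under 6 alternatives, which included leaving out the Tc17 WT technical array (-0.32, adjusted p = 0.0219) and all technical arrays (-0.32, adjusted p = 0.0176).

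STAT5A and STAT5B are near-identical proteins from neighbouring genes, and the probe sequences were not given, so signal shared between their probe sets cannot be assessed here.

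Stat2 and Stat6 gave no call. Stat2, the interferon pathway member, ranged from 7.98 to 8.15 in Tc17 STAT3-/- and from 7.69 to 8.21 in Tc17 WT, a difference of -0.01 with a 95% interval from -0.25 to 0.22. Stat6, the IL-4 signal carrier, ranged from 9.37 to 9.41 in Tc17 STAT3-/- and from 8.92 to 9.39 in Tc17 WT, a difference of 0.13 with an interval from -0.11 to 0.37. The interval of Stat6 reaches the size of the change of Stat5a, and that of Stat2 does not.

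The whole distribution was shifted in this comparison: the median change of all tested genes was 0.11, and the median of tested genes was 6.96 to 6.98 on Tc17 STAT3-/- arrays and 6.68 to 6.91 on Tc17 WT arrays. The rescalings were subtraction of the median of tested genes or of all probe sets, quantile normalization and cyclic loess. Relative to the median change, Stat4 lay at 0.49, Stat5a at -0.41 and Stat5b at -0.36. Stat4 stayed called after each of the 4 rescalings, whereas Stat5a was uncalled after subtracting the median of all probe sets (adjusted p = 0.105) and Stat5b was called after the other 3.

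Some markers of other cell types differed between the genotypes in Tc17. The summed linear signal of 5 measured B cell markers was 1970 to 2370 on Tc17 STAT3-/- arrays and 668 to 707 on Tc17 WT arrays, with Ighm (1.77 higher) and Cd79b (0.78 higher) above the filter. Ms4a1, Cd79a and Pax5, defining markers of B cells, were below the filter in every group and lay between 2.37 and 3.97 in Tc17 STAT3-/- and between 2.51 and 3.97 in Tc17 WT. In Tc1 the B cell sums were 1467 to 1846 in STAT3-/- and 1523 to 1539 in WT. The sum of 6 myeloid markers was 165 to 174 on Tc17 STAT3-/- arrays and 286 to 307 on Tc17 WT arrays, and only Cd68 (-1.12) was above the filter. Limma called 0 of 2 tested CD4 T cell markers (0 at an unadjusted p under 0.05). Of the NK and innate-like T cell markers only Sox13 was tested, and it was not called (unadjusted p above 0.05). The NK markers Ncr1 and Klrb1c were below the filter in every group. The part of these marker differences in the STAT results was not tested.

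**Figure D2:**
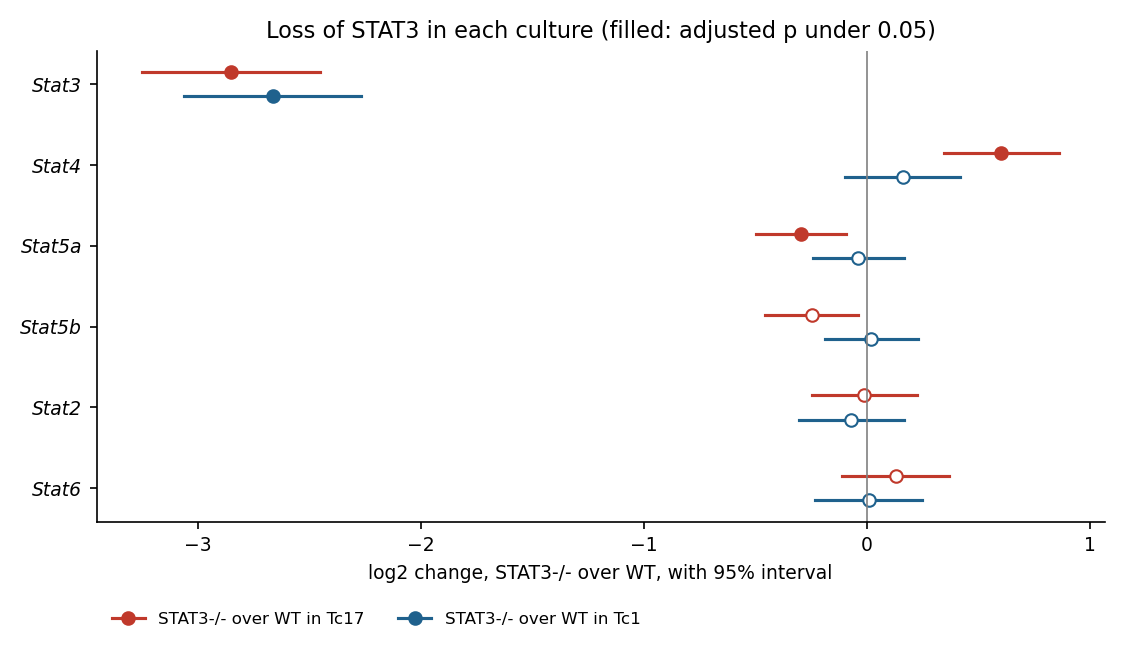
Log2 change of each STAT gene, STAT3-/- over WT, with its 95% interval (horizontal axis), in Tc17 (red) and Tc1 (blue). Filled points passed adjusted p under 0.05. Only Stat3 is filled in both cultures, and Stat4 (0.60) and Stat5a (-0.30) are filled in Tc17.

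In Tc1 cells none of the 5 other STAT genes was called by limma on loss of STAT3 (0 of 5 at an unadjusted p under 0.05 as well). Only 0.0608% of all tested genes were called there, and all 5 had an adjusted p of 0.998. Stat4 came nearest: it read 10.45 and 10.39 on the biological arrays and 10.40 on the technical array of Tc1 STAT3-/-, against 10.31, 10.33 and 10.10 in Tc1 WT. These did not overlap, but the difference was 0.16 ± 0.11 (SE), with an interval from -0.10 to 0.42. The changes of the other 4 lay between -0.07 (Stat2) and 0.02 (Stat5b), with intervals inside -0.31 to 0.25.

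Whether the effect of losing STAT3 differed between the cultures was tested as an interaction. It was called for 0 of the 6 STAT genes by limma (1 at an unadjusted p under 0.05) and for 6.85% of all tested genes. The difference was 0.44 ± 0.16 (SE) for Stat4 (adjusted p = 0.136), -0.26 ± 0.13 for Stat5a (0.253 as adjusted p) and -0.27 ± 0.13 for Stat5b (0.249 as adjusted p). So the calls of Stat4 and Stat5a in Tc17 alone do not show that Tc1 cells respond differently. Stat4 passed only without Tc17 WT replicate 1 (0.60, adjusted p = 0.0228).

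**Figure D3:**
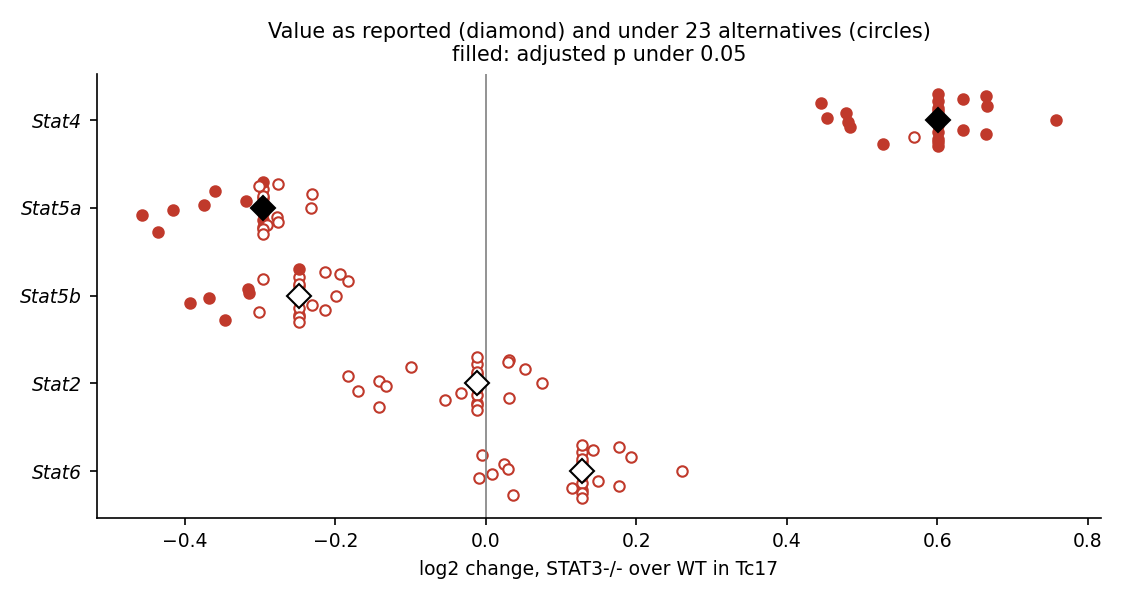
Log2 change of 5 STAT genes, STAT3-/- over WT in Tc17 (horizontal axis), as reported (diamonds) and under 23 alternatives (circles, spread vertically for legibility). Filled symbols passed adjusted p under 0.05. Stat4 stays between 0.45 and 0.76 and is filled in 22 of 23, while Stat5a runs from -0.46 to -0.23 and Stat5b from -0.39 to -0.18 and both change sides of the threshold.

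In WT cells 4 of the 6 STAT genes were called between Tc17 and Tc1, against 25% of all tested genes (7.01% higher and 18% lower): Stat3, Stat5a and Stat5b were higher in Tc17 and Stat4 was lower. This comparison shares the Tc17 WT samples with the Tc17 genotype comparison, so opposite signs in the 2 are not independent. Of all called genes 28.0% were higher in Tc17 WT, and 18.5% to 50.5% after the 4 rescalings, and the median change of all tested genes was -0.10.

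Stat4 fell by 0.70 ± 0.11 (SE) in Tc17 WT relative to Tc1 WT (adjusted p = 0.0031), to 61.5% of the Tc1 signal. The arrays, given above, did not overlap, and the differences of like arrays were -0.59, -0.63 and -0.99, the last between technical arrays. The call held under all 23 alternatives.

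Stat5a rose by 0.59 ± 0.09, to 150.1% of the Tc1 WT signal (adjusted p = 0.0023), and its call also held under all 23. It read 7.36 and 7.38 on the biological arrays and 7.24 on the technical array of Tc1 WT, below each Tc17 WT value. Stat5b rose by 0.41 ± 0.09 (1.33-fold, adjusted p = 0.0125), with Tc1 WT values of 8.75, 8.73 and 8.60, again below each Tc17 WT value. Its call was lost without either Tc1 WT sample (adjusted p = 0.0515 without replicate 1 and 0.0849 without replicate 2).

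Stat3 itself rose by 0.59 ± 0.18 in Tc17 WT over Tc1 WT (1.51-fold, adjusted p = 0.0376). The 3 pairs of like arrays differed by 0.59, 0.59 and 0.60, and the groups did not overlap. The call was nevertheless lost under 8 alternatives, with adjusted p up to 0.165 without Tc1 WT replicate 2. The SE of Stat3 takes in its wider spread in Tc1 STAT3-/- (SD 0.42, against 0.03 to 0.14 in the other groups).

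Without STAT3, the same culture comparison called 0 of the 6 STAT genes by limma (3 at an unadjusted p under 0.05), when 2.07% of all tested genes were called. Stat5a differed by 0.33 ± 0.09 (adjusted p = 0.145) and Stat4 by -0.26 ± 0.11 (adjusted p = 0.445), each in the direction seen in WT. Stat5a was called there with all technical arrays left out (0.52, adjusted p = 0.0120). Stat3 signal differed by 0.41 ± 0.18 (adjusted p = 0.430). Whether these culture differences depend on genotype is the interaction already given, in which 0 STAT genes were called.

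**Figure D4:**
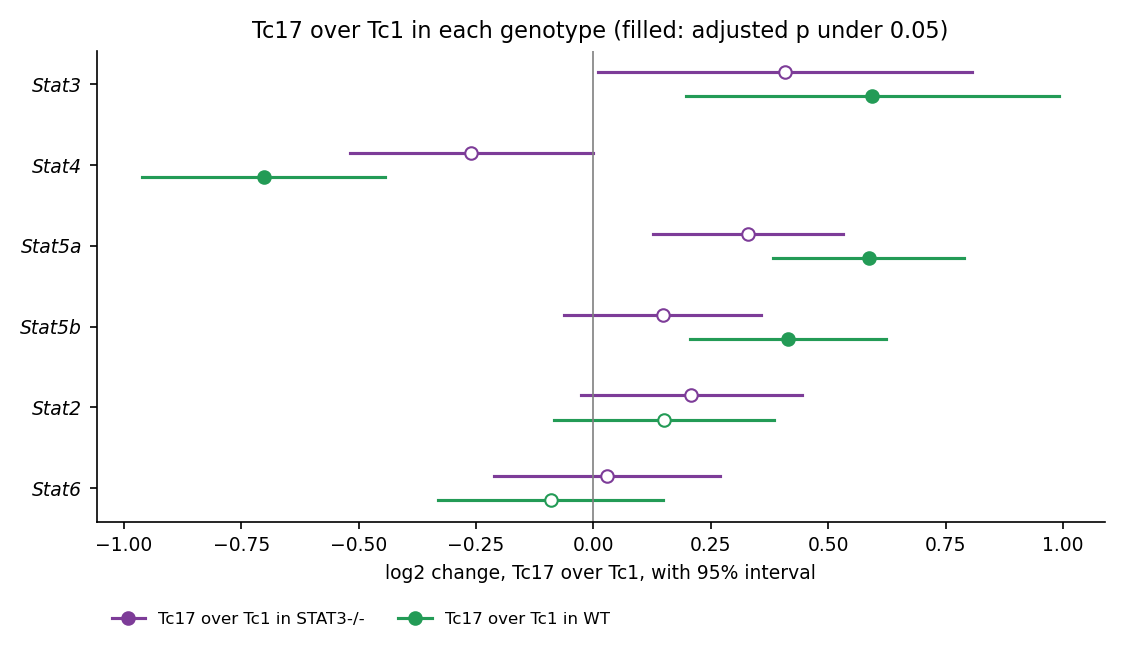
Log2 change of each STAT gene, Tc17 over Tc1, with its 95% interval (horizontal axis), in STAT3-/- cells (purple) and WT cells (green). Filled points passed adjusted p under 0.05. In WT cells Stat3, Stat5a and Stat5b are filled to the right of 0 and Stat4 to the left. No STAT3-/- point is filled.

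The order of the 4 group means differed between the STAT genes. Stat3 ran from Tc17 WT through Tc1 WT and Tc17 STAT3-/- to Tc1 STAT3-/-, and only the last pair overlapped. Stat5a, Stat5b and Stat2 were highest in Tc17 WT, then Tc17 STAT3-/-, then Tc1 cells of both genotypes, although for Stat2 the first 2 differed by 0.01 and overlapped, as they did for Stat5a. Between the Tc1 genotypes all 3 overlapped. Stat5a and Stat5b also overlapped between Tc17 STAT3-/- and Tc1 STAT3-/-, and Stat2 between Tc17 WT and Tc1 WT. Stat4 ran the other way, from Tc1 STAT3-/- through Tc1 WT and Tc17 STAT3-/- to Tc17 WT. Its neighbours Tc1 WT and Tc17 STAT3-/- overlapped (a difference of 0.10). Stat4 in Tc17 WT lay below all the other groups without overlap. In Tc1 STAT3-/- it lay above Tc1 WT, also without overlap, by 0.16. For Stat6 all neighbouring groups overlapped, and its group means spanned 0.13.

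For the genes whose group means spanned at least 0.5, those most alike over the 8 samples were named as a description. Abhd17b (Pearson r = 0.979), a depalmitoylating enzyme, and Mir1199 (0.960) were most like Stat3. Ezh2 (0.995), the methyltransferase of the Polycomb complex, and Cmah (0.995), a sialic acid hydroxylase, were most like Stat4. Coro1b (0.995), an actin regulator, and Hemk1 (0.989), a methyltransferase, were most like Stat5a. The 8 samples share their 4 group levels, which alone can give high values among 9862 genes.

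Stat5a and Stat5b are the first and second protein-coding neighbours of Stat3 on one side of the RefSeq gene table. Because the targeted allele sits there, the 10 protein-coding neighbours on each side were described as a set. Of these 20 genes 16 were tested, and in Tc17 5 were called on loss of STAT3 (3 higher, 2 lower, 9 at an unadjusted p under 0.05), close to the background of 25.1%. Besides Stat5a the calls were Atp6v0a1, a proton pump subunit (-0.51), Kat2a, a histone acetyltransferase (0.47), Naglu, a lysosomal enzyme (0.35), and Retreg3 (0.53). Each of these 4 lost its call under at least 5 alternatives. In Tc1 0 of 16 were called by limma (1 at an unadjusted p under 0.05). Their median change was 0.06 in Tc17 and -0.02 in Tc1.

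**Figure D5:**
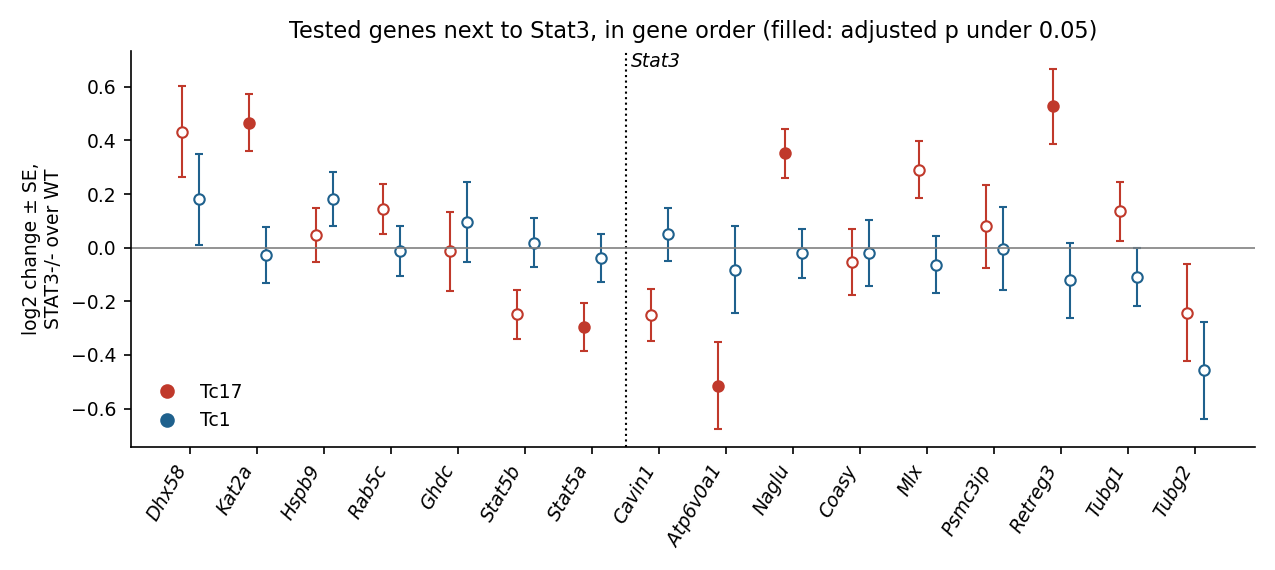
Log2 change ± SE, STAT3-/- over WT (vertical axis), of the 16 tested genes among the 20 nearest protein-coding neighbours of Stat3, in gene order, in Tc17 (red) and Tc1 (blue). The dotted line marks the place of Stat3, filled points passed adjusted p under 0.05. Both signs occur on both sides of Stat3, and no Tc1 point is filled.

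The kinases and receptors upstream of the STATs were described next for Tc17 STAT3-/- over Tc17 WT. The other JAK kinases were not called: Jak1 differed by 0.21 ± 0.08 (SE, adjusted p = 0.101), Jak2 by -0.22 ± 0.14 (adjusted p = 0.275) and Tyk2, which serves IL-12 and interferon receptors, by 0.00 ± 0.11 (adjusted p = 0.984). Limma called 0 of the 3, and 1 had an unadjusted p under 0.05. Jak1 read 10.35 to 10.45 in Tc17 STAT3-/- and 10.15 to 10.21 in Tc17 WT. It was called with limma's trend and robust options (adjusted p = 0.0335).

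Receptors that share the common gamma chain, and so use JAK3, had 3 of 6 tested members lower and 0 higher, where 6.83% of all tested genes were lower and 18.2% higher. The IL-4 receptor chain Il4ra fell by 0.55, the IL-21 receptor Il21r by 0.44 and the IL-7 receptor Il7r by 0.33. Leaving out either Tc17 STAT3-/- sample ended all 3 calls, and limma's trend and robust options gave 5 calls on this list. Among gp130 and IL-10 family receptors 1 of 5 was higher, Il10rb (0.61), and 1 lower, Il6ra, the IL-6 receptor chain (-1.93). Calls on this second list numbered 4 or 5 under 4 alternatives, 5 with technical arrays left out. The median changes of these lists were -0.24 and 0.40, against 0.11 over all tested genes.

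Of 6 tested IL-12, IL-23 and interferon receptor genes, 1 was higher and 2 lower, against 18.2% and 6.83% of all tested genes. Ifngr1, the ligand-binding chain for interferon-gamma, rose by 0.36 and Ifngr2, its partner chain, fell by 1.21. Il12rb1, a chain that IL-12 and IL-23 receptors share, fell by 0.55. Il12rb2, the IL-12-specific chain, was at -0.16 (adjusted p = 0.305). The calls of Ifngr1 (then 0.32) and Il12rb1 (then -0.47) were lost without Tc17 STAT3-/- replicate 2. Ifngr1 was also uncalled without replicate 1 of that group and with no filter on dim genes. It was uncalled too after subtracting the tested median (limma adjusted p = 0.0828) and after cyclic loess (0.0522 as adjusted p). Of the 6 genes, 5 were called under 7 alternatives, among them with technical arrays left out.

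Among 7 tested SOCS genes, which encode feedback inhibitors, Socs3 fell by 1.46 and Socs2, a target of STAT5 signalling, rose by 0.97. The other 5 were not called, Cish, also a STAT5 target, among them (-0.25 ± 0.26, adjusted p = 0.514). Of 12 tested PIAS, phosphatase and adaptor genes of JAK-STAT signalling, 4 were higher and 2 lower, against the same 18.2% and 6.83%. Pias1 (0.48), which encodes a nuclear STAT inhibitor, Ptpn6 (0.46), the phosphatase SHP-1, and Ptprc (0.43), the phosphatase CD45, rose. Ptpn11 (0.40) was the other higher call. Sh2b3, the adaptor LNK, fell by 0.47, and Pias4, of the same family as Pias1, was lower as well (-0.32). The list had 1 call without Tc17 STAT3-/- replicate 1 and 0 without replicate 2.

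Downstream genes were grouped by the STAT best known to drive them, with no member taken as a target in these cells. All 12 tested STAT3-bound type 17 genes were lower in Tc17 STAT3-/-, among them Il17f (-4.43), Il24 (-4.17), Il17a (-3.77) and the transcription factor Maf (-3.21). Il17a, Il17f, Il21, Il24 and Maf reached the filter in Tc17 WT alone, which fixes the direction of their change, so the count over the list is a description only. Batf, Bcl3, Hif1a, Il6ra, Irf4, Rora and Socs3 passed the filter in every group.

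The other groups split, and their counts stand against 18.2% of all tested genes called higher and 6.83% called lower. STAT4-induced type 1 genes had 3 of 9 higher and 3 lower (median -0.16): Ifng (2.35), the type 1 cytokine, Il18rap (1.01), an IL-18 receptor chain, and Tbx21 (0.63), which encodes T-bet, rose. Gadd45g, a stress signalling gene, fell by 1.14. STAT5-induced genes had 4 of 14 higher and 4 lower (median -0.03). Gzmb, which encodes granzyme B, rose by 0.93 and Socs2 is given above. Lif, an IL-6 family cytokine, fell by 2.86 and Bcl6, a transcriptional repressor, was lower by a log2 change of -1.10. Bcl6 reached the filter in Tc17 WT alone, which fixes its direction, and STAT5 is known to restrain it rather than induce it, so it does not match the name of its list.

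STAT6-induced genes had 2 of 6 higher and 3 lower (median -0.17). The type 2 factor Gata3 rose by 0.94 while the chemokine receptor Ccr4 fell by 1.33, with Maf and Il4ra the other 2 that fell. Maf, already counted among the STAT3-bound genes, reached the filter in Tc17 WT alone, which fixes its direction. The other higher call was the chemokine receptor Ccr8 (0.66), which reached the filter in Tc17 STAT3-/- alone, which fixes its direction. Without Tc17 STAT3-/- replicate 2 this list had 3 calls, and the STAT5-induced list had 5 without replicate 1 and 4 without replicate 2. In the group of the STAT2 complex and its induced genes 0 of 4 tested were called by limma (1 at an unadjusted p under 0.05), and 1 was called without either Tc17 WT sample, with all technical arrays or that of Tc17 WT left out, after subtracting the tested median and after quantile normalization. The 1 gene with an unadjusted p under 0.05 was Ifit3 (-0.35), which reached the filter in Tc17 WT alone, which fixes its direction. Irf9, the DNA-binding partner of STAT2, differed by 0.24 (adjusted p = 0.152). Of the 32 genes named from these lists and from the neighbours of Stat3, 16 kept their Tc17 call under every alternative run. All 32 kept their direction. They were named by their calls in this comparison and every alternative reuses the same arrays, so both counts are a description only. In Tc1 none of the lists of pathway genes held a call, where 0.0608% of all tested genes were called. Bcl3 (-0.50), Prf1 (-0.40), Ifngr2 (0.37), Socs3 (-0.28) and Bcl2 (0.24) had an unadjusted limma p under 0.05 there.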

How the data were processed

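Mouse CD8 T cell RNA was measured on 12 Affymetrix arrays. The deposited log2 values, 1 per probe set and array, were made by the authors with RMA and Partek, per the submitters' processing notes. Versions and the role of each are not given. RMA narrows differences near background, and precision is limited by the small number of samples.

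The table has 41345 probe sets. A single gene symbol was listed for 23521, several for 1814 and none for 16010. The brightest probe set per gene gave 22180 genes, of which 9862 reached a group mean of 5 and were tested. Entrez identifiers of 23328 probe sets matched RefSeq (GRCm38.p6), and 0 symbols changed.

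Groups came from the sample titles. The technical array was averaged with the biological array of the same number. Its SD of differences from biological array 2 was 0.209 to 0.352, against 0.144 to 0.192 between biological arrays, so it may not repeat that sample. All 4 groups were fitted together with limma 3.58.1 in R 4.3.3 (4 residual and 4.87 prior degrees of freedom), 5 contrasts, two-sided, and Benjamini-Hochberg adjustment over all tested genes, with calls at adjusted p under 0.05. The fit was tested on simulated data. Figures used matplotlib 3.10.9. Alternatives kept the tested genes except where the filter or probe choice was varied. They were the use of the technical arrays, the filter, scaling, probe-set averaging, limma options, a replicate block, fewer groups in the fit, and leaving out each sample.

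The genes and lists were chosen with earlier results of these data known, and the alternatives for list genes and list counts were added after seeing the data. Named genes were the 6 STAT genes, up to 4 called members per list by size, called neighbours of Stat3, the other JAK kinases, and 2 most alike genes per STAT gene.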

Additional observations from a re-analysis of the deposited data

Results flagged for a closer look

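Of the 32 genes named from the pathway lists and the neighbours of Stat3, 16 were called by the interaction test (limma, adjusted p under 0.05). The same test called 6.85% of all tested genes. The 32 were named by their calls in Tc17, which are part of the interaction, so the count is a description only. Il17f, Il24, Il17a and Maf reached the filter in Tc17 WT alone, which fixes their sign. The difference is given as the log2 change in Tc17 minus that in Tc1. It was negative for Il17f (-4.40), Il24 (-4.10), Il17a (-3.87), Maf (-2.998), Lif (-2.60), Il6ra (-1.89), Ifngr2 (-1.58), Ccr4 (-1.35), Socs3 (-1.17) and Gadd45g (-0.92). It was positive for Ifng (2.50), Gzmb (0.99), Socs2 (0.99), Gata3 (0.91), Tbx21 (0.64) and Il10rb (0.57). The calls of Gadd45g, Gata3, Tbx21 and Il10rb were each lost under at least 7 of 22 alternatives. No STAT gene met any of the criteria for a closer look.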

How the results depend on the processing

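Stat3 kept its call in both genotype comparisons under all 23 alternatives, as did Stat4 and Stat5a between Tc17 WT and Tc1 WT. Where calls of STAT genes changed, the values are in the report, and the cause was not tested. In STAT3-/- cells, Tc17 over Tc1, 1 STAT gene was called with the technical array averaged with biological array 1 (Stat3, 0.57) or with array kind as a block (Stat3, 0.50), and 1 with technical arrays left out (Stat5a, 0.52). Stat2 was called between Tc17 WT and Tc1 WT after quantile normalization (0.28) and cyclic loess (0.31).

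Genes called in Tc1 on loss of STAT3 numbered 6 as reported, 16 with the technical array averaged with array 1, 17 with technical arrays left out, 13 with them as samples of their own, 20 with array kind as a block and 14 without the Tc17 WT technical array. The interaction called 676 genes as reported, 1246 without technical arrays and 384 with no filter on dim genes. Tc17 over Tc1 called 398 genes in STAT3-/- without technical arrays (204 as reported), and 1479 in WT with only the 2 groups in the fit (2468 as reported).

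Leaving out each sample in turn gave 943 to 3191 called genes for Tc17, 4 to 7 for Tc1, 244 to 1555 for the interaction, 1100 to 3232 for culture in WT and 65 to 247 for culture in STAT3-/-. The called STAT genes were then 1 to 3 in Tc17, 1 in Tc1, 0 to 1 for the interaction, 2 to 4 for culture in WT and 0 for culture in STAT3-/-.

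The replicate numbers were shared between groups, but the labels do not say that a number marks a shared culture. Deviations of same-numbered samples correlated at 0.098 to 0.455, with the technical array averaged into replicate 2. On the biological arrays alone they correlated at 0.00036 to 0.172. With the replicate number as a block 15 genes were called in Tc1 and 1018 for the interaction, and no call of a STAT gene changed.

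Signs that reversed belonged to uncalled differences. On loss of STAT3 in Tc1, Stat6 was -0.013 with the technical array averaged with array 1 and -0.037 without technical arrays, where Stat5b was -0.058. In Tc17, Stat2 was 0.030 with technical arrays as samples or array kind as a block and 0.052 after subtracting the median of all probe sets, and Stat6 was -0.0096 after cyclic loess. Tyk2 was -0.065 without technical arrays, -0.056 without the Tc17 WT technical array, -0.12 after subtracting the tested median, -0.13 after quantile normalization and -0.16 after cyclic loess. For the interaction, under those settings in that order, Stat2 was -0.017, -0.071, -0.056, -0.061 and -0.090, and Stat6 was -0.012 with cyclic loess. Between Tc17 WT and Tc1 WT, Stat6 was 0.0073 without the Tc17 WT technical array, 0.024 after subtracting the tested median, 0.022 after quantile normalization and 0.058 after cyclic loess.

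With a sample left out, Tc17 changes ran from -0.099 to 0.074 for Stat2, -0.0053 to 0.26 for Stat6 and -0.14 to 0.15 for Tyk2. Tc1 changes ran from -0.15 to 0.014 for Stat2, -0.080 to 0.0018 for Stat5a, -0.024 to 0.061 for Stat5b and -0.031 to 0.047 for Stat6. The interaction ran from -0.029 to 0.14 for Stat2, -0.48 to 0.11 for Stat3 and -0.013 to 0.25 for Stat6. Stat6 ran from -0.22 to 0.042 for culture in WT and -0.0074 to 0.065 for culture in STAT3-/-. With 2 samples a group, changes of about the size of Stat5a and Stat5b in Tc17 sat at the limit of what could be called in that comparison. In Tc1 larger changes went uncalled, such as Bcl3 at -0.50 (limma adjusted p = 0.571). Between the cultures in STAT3-/- cells, Stat5a at 0.33 was not called either (limma adjusted p = 0.145).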
